A study of Rattus norvegicus with 8 samples.

Results

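The cluster of miR-132 and miR-212 was followed in the medial vestibular nucleus (MVN) of rats after loss of the inner ear on one side. Its 4 mature arms (rno-miR-132-3p, rno-miR-212-3p, rno-miR-132-5p and rno-miR-212-5p, where rno marks the rat) were taken by name from 758 rat miRNAs on an Agilent microarray. Of these 4 arms, 3 were detected and tested among 422 miRNAs. The remaining arm, miR-132-5p, was detected on 0 of 8 arrays. The MVN lies in the brainstem and is driven by the vestibular nerve. In the UVD group, male 7-week-old Sprague–Dawley rats underwent left unilateral labyrinthectomy, in which the vestibule was opened and ethanol was injected into it. In the SO group, rats of the same strain, sex and age had the same surgery on the left side without the opening and without ethanol. Only the MVN of the left side, the side of the surgery, was collected. There were 2 timepoints, giving the groups UVD at 4 d, UVD at 4 h, SO at 4 d and SO at 4 h. Each group had 2 arrays, and each array carried RNA from MVNs of 3 animals pooled before extraction.

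miR-132 and miR-212 are cut from a shared primary transcript. In neurons this transcript is switched on by the transcription factor CREB after synaptic activity or exposure to BDNF, a growth factor released at active synapses. The 3p arms are the arms usually loaded into the silencing complex. A known target of miR-132 is p250GAP, a regulator of the dendritic cytoskeleton, and the cluster is best known for its effects on dendrite growth and synaptic plasticity. A miRNA finds its targets mainly through its seed, the short stretch near its 5′ end.

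The mature sequences are printed because the 3p arms share a seed while the 5p arms do not. Bases 2 to 8 (the seed) are in capitals, and all are written 5′ to 3′ from RefSeq (build GRCr8).
miR-132-3p: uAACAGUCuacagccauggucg
miR-212-3p: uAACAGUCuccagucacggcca
miR-132-5p: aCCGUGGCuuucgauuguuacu
miR-212-5p: aCCUUGGCucuagacugcuuacug
The 3p arms were identical at 17 of 22 positions, including 7 of 7 seed positions and the first 9 bases. The 5p arms were identical at 14 of 22 positions and at 6 of 7 seed positions. Among 685 array miRNAs that matched a RefSeq mature name, the seed AACAGUC was carried by 2, both of them members, and each 5p seed by 1. The Mir132 hairpin is shown with its arms in capitals, the 5p arm first, to show where both are cut from.
Mir132: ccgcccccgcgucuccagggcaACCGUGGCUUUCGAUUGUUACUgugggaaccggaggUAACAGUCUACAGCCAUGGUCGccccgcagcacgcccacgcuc
Mir132 lies at chr10:60522033-60522133 and Mir212 at chr10:60521740-60521850, both on the plus strand of GRCr8. The hairpins were 182 bases apart, and 0 other annotated genes overlapped either one. The nearest annotated protein-coding gene upstream, Hic1, ended 3927 bases before Mir212.

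The arrays reported a total gene signal for each miRNA. It was quantile-normalized here, the normalization that the paper's methods name. This scaling gives all arrays one distribution of intensities. Between 378 and 430 miRNAs were detected on an array, the lowest number on UVD 4 h replicate 2, and 0 were saturated. All 8 arrays lay on 1 slide, with the UVD arrays in one row and the SO arrays in the other, and with the timepoints in separate columns, so position on the slide and group cannot be told apart. Tests were made with limma on log2 normalized intensities. A call required a Benjamini-Hochberg adjusted p below 0.05 over all 422 miRNAs. With 2 pools per group, errors and p-values describe the spread between pools and not between animals.

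miR-132-3p, the arm with the most studied targets, had lower mean intensity at 4 d than at 4 h in both operations, and no comparison of it passed the adjusted threshold. Normalized intensity was 1115 and 1161 in the UVD group at 4 d, against 1571 and 1503 in the UVD group at 4 h. It was 1464 and 1115 in the SO group at 4 d, against 1921 and 1709 in the SO group at 4 h. Within each operation both 4 d arrays were below both 4 h arrays, and all 4 arrays at 4 d were below all 4 arrays at 4 h. The group means were 1138 ± 32.1 for UVD at 4 d, 1537 ± 47.9 for UVD at 4 h, 1289 ± 246 for SO at 4 d and 1815 ± 150 for SO at 4 h (SD, n = 2 each). The widest spread was between the 2 SO arrays at 4 d. In these bulk samples, fewer cells of a type and less RNA per cell cannot be told apart.

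**Figure D1:**
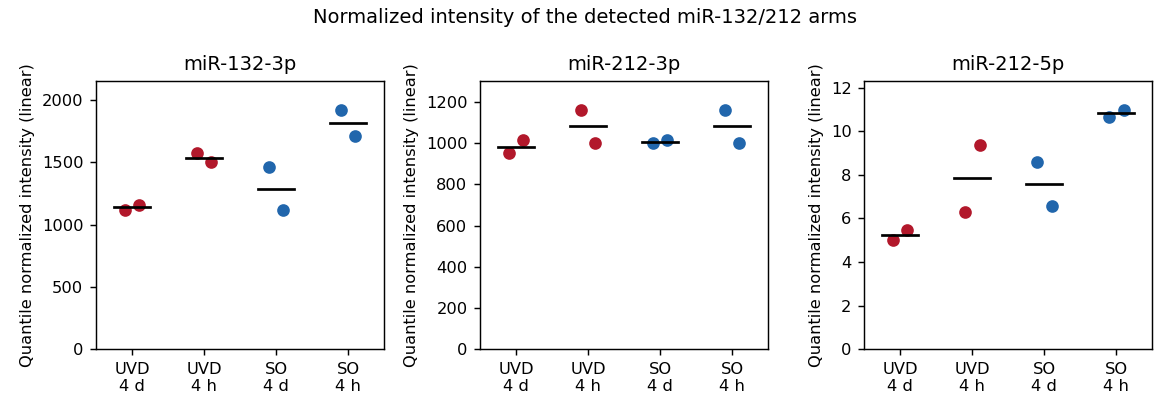
Normalized intensity of each detected arm on each of 8 arrays, on a linear axis starting at 0, with the groups UVD 4 d, UVD 4 h, SO 4 d and SO 4 h along the horizontal axis. Points are arrays (pools of 3 animals) and horizontal bars are group means. For miR-132-3p the 4 d points lie below the 4 h points, whereas the miR-212-3p groups overlap.

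In the UVD group the log2 fold change of miR-132-3p, 4 d over 4 h, was -0.43 (SE 0.14, 95% interval -0.80 to -0.07), a fold of 0.74. Its limma p was 0.0272 and its adjusted p 0.282. Of the 3 tested arms, 0 passed the adjusted threshold, as did 0 of 422 miRNAs (0.0%), while 1 arm (miR-132-3p) and 65 of all tested miRNAs (15.4%) had an unadjusted p below 0.05. The methods' t-test also called 0 after adjustment. Complete separation with lower values at 4 d was found for 2 of 3 arms (miR-132-3p and miR-212-5p) and for 25.4% of all tested miRNAs. The size of the miR-132-3p difference depended on the scaling. Its unscaled total gene signal was 1357 and 1202 in the UVD group at 4 d, against 1352 and 1355 in the UVD group at 4 h. The groups overlapped on this scale and the log2 difference was -0.08, beside a median of 0.26 over all tested miRNAs.

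In the SO group the log2 fold change of miR-132-3p, 4 d over 4 h, was -0.50 (SE 0.14, 95% interval -0.87 to -0.14), a fold of 0.705, with a limma p of 0.0156 and an adjusted p of 0.152. Of 3 arms, 0 passed, against 7 of 422 miRNAs (1.66%), and 1 arm (miR-132-3p) and 100 of all tested miRNAs (23.7%) had an unadjusted p below 0.05. Both arrays at 4 d were below both at 4 h for 2 of 3 arms, again miR-132-3p and miR-212-5p, and for 28.7% of all tested miRNAs. Unscaled signal of miR-132-3p was 1407 and 1090 in the SO group at 4 d, against 1663 and 1854 in the SO group at 4 h. Here the separation was also present without scaling, with a log2 difference of -0.50 and a median of 0.02 over all tested miRNAs. The share of all tested miRNAs that separated without scaling was not counted. With each array scaled to its 75th percentile over all miRNAs the difference was -0.32, beside a median of 0.20.

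Averaged over both operations, the log2 fold change of miR-132-3p was -0.47 (SE 0.10, 95% interval -0.72 to -0.21), a fold of 0.723. It ranked 28 of 422 by p, with a limma p of 0.00504 and an adjusted p of 0.0721. Of 3 arms, 0 passed the threshold in this average, against 7 of 422 miRNAs (1.66%), and 2 arms (miR-132-3p and miR-212-5p) and 28.0% of all tested miRNAs had an unadjusted p below 0.05. All 4 arrays at 4 d were below all 4 at 4 h for 1 of 3 arms, miR-132-3p, and for 6.64% of all tested miRNAs. The difference between the operations in this time difference was 0.07 on the log2 scale (SE 0.20, 95% interval -0.44 to 0.58, limma adjusted p = 0.917). Of 3 arms 0 passed that test, against 1 of 422 miRNAs (0.237%), and 0 arms and 8.77% of all tested miRNAs had an unadjusted p below 0.05. Without scaling the averaged difference was -0.29, beside a median of 0.16 over all tested miRNAs. On that scale the timepoints overlapped across operations. SO 4 d replicate 1 (1407) and UVD 4 d replicate 1 (1357) lay above both UVD arrays at 4 h (1352 and 1355). The difference between the operations in the time difference was then 0.42 (limma adjusted p = 0.45), beside a median of 0.31. The call of the averaged difference changed with the setting: the adjusted p was 0.0189 with normexp background correction, 0.0257 with the authors' own values, 0.0258 with a trended robust variance and 0.0294 without SO 4 d replicate 1.

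**Figure D2:**
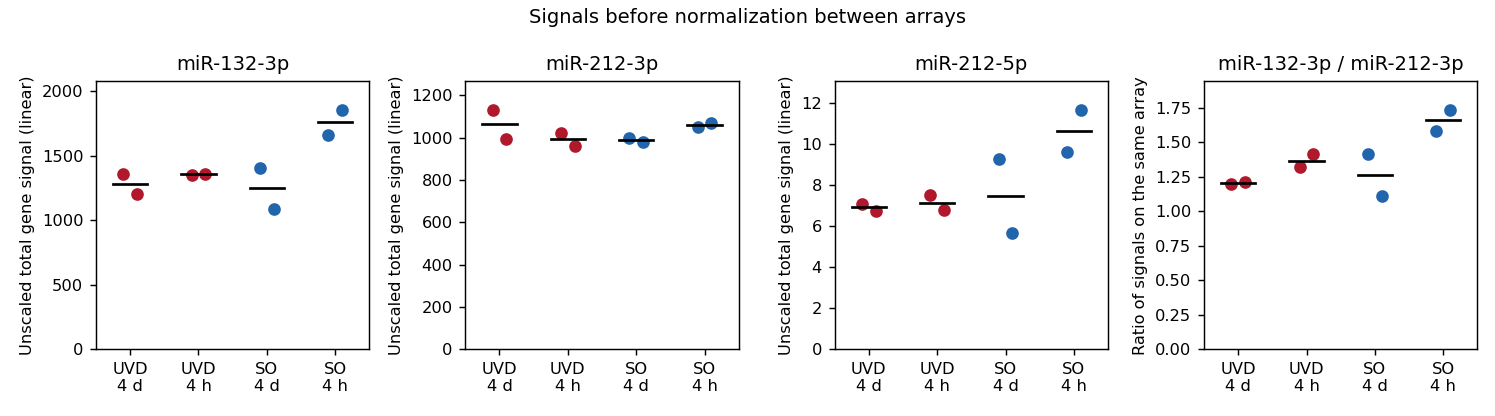
Unscaled total gene signal of each detected arm on each of 8 arrays and, in the last panel, the ratio of miR-132-3p to miR-212-3p signal on the same array, with the groups UVD 4 d, UVD 4 h, SO 4 d and SO 4 h along the horizontal axis and horizontal bars at group means. Without scaling, the UVD groups overlap for miR-132-3p (1202 to 1357 at 4 d and 1352 to 1355 at 4 h), whereas the SO groups do not (1090 to 1407 at 4 d and 1663 to 1854 at 4 h).

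Between operations, miR-132-3p had lower mean intensity in the UVD group at both timepoints, within the spread of the test. At 4 d the log2 fold change, UVD over SO, was -0.17 (SE 0.14, 95% interval -0.53 to 0.19, limma adjusted p = 0.797), and the arrays overlapped. The direction at 4 d was not stable: the difference was 0.04 without scaling and 0.03 without SO 4 d replicate 1. At 4 h it was -0.24 (SE 0.14, 95% interval -0.60 to 0.12, limma adjusted p = 0.463), and both UVD arrays were below both SO arrays. Its size at 4 h was -0.11 with the percentile over all miRNAs, -0.14 with the percentile over detected miRNAs and -0.38 without scaling. Of 3 arms, 0 passed at 4 d, where 0 of 422 miRNAs (0.0%) passed, 0 arms and 16 miRNAs (3.79%) had an unadjusted p below 0.05, and the methods' t-test called 0 after adjustment. Of 3 arms, 0 passed at 4 h, where 2 of 422 (0.474%) did, and 0 arms and 17.1% of all tested miRNAs had an unadjusted p below 0.05. Groups that did not overlap, with UVD below SO, were found at 4 d for 1 arm (miR-212-5p) and 17.3% of tested miRNAs, and at 4 h for 2 arms (miR-132-3p and miR-212-5p) and 28.4% of tested miRNAs.

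miR-212-3p, which carries the same seed as miR-132-3p, had normalized values that overlapped between timepoints and between operations. Normalized intensity was 949 and 1014 in the UVD group at 4 d, against 1161 and 1000.3 in the UVD group at 4 h. In the SO group it was 1000.3 and 1014 at 4 d, against 1161 and 1000.3 at 4 h. The 4 h values were the same in both operations because quantile normalization assigned this miRNA the same ranks on those arrays, so the log2 difference between operations at 4 h was 0.00 (SE 0.11, 95% interval -0.28 to 0.28). Unscaled, the signal of miR-212-3p at 4 h was 1023 and 960 in UVD arrays, against 1052 and 1069 in SO arrays. On that scale the UVD arrays at 4 h were the lower pair, by -0.10 on the log2 scale. With 75th percentile scaling the sign was opposite, at 0.14 over detected miRNAs and 0.17 over all miRNAs. At 4 d the unscaled signal was 1131 and 993 in UVD arrays, against 997 and 981 in SO arrays. Without scaling the SO arrays at 4 d thus lay below the SO arrays at 4 h, whereas the UVD timepoints overlapped. The share of all tested miRNAs that separated in this way without scaling was not counted.

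The time difference of miR-212-3p, 4 d over 4 h, was -0.14 in the UVD group (SE 0.11, 95% interval -0.41 to 0.14, limma adjusted p = 0.561). It was -0.10 in the SO group (SE 0.11, 95% interval -0.37 to 0.18, limma adjusted p = 0.629) and -0.12 averaged over both (SE 0.08, 95% interval -0.31 to 0.08, adjusted p = 0.382). These intervals contained 0. Their signs depended on the scaling: the UVD difference was 0.10 without scaling, and the SO difference was 0.09 with 75th percentile scaling over all miRNAs. At 4 d the difference, UVD over SO, was -0.04 (95% interval -0.31 to 0.24, limma adjusted p = 0.955).

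Both 3p arms were read on the same array, so the ratio of their unscaled signals would not move with one factor applied to the whole array, although quantile normalization does move it and it depends on how brightly each probe reports. The ratio of unscaled signals, miR-132-3p over miR-212-3p, was 1.199 and 1.211 in the UVD group at 4 d, against 1.322 and 1.412 in the UVD group at 4 h. It was 1.412 and 1.111 in the SO group at 4 d, against 1.581 and 1.734 in the SO group at 4 h. Within each operation both ratios at 4 d were below both at 4 h. How often ratios of other miRNAs separate in this way was not counted. For single miRNAs on the normalized scale, such separation was found for 25.4% (UVD) and 28.7% (SO) of all tested. Across operations the timepoints overlapped, since SO 4 d replicate 1 reached the level of the UVD arrays at 4 h. This ratio was chosen after the data were seen and was not tested.

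miR-212-5p, the arm from the other side of the Mir212 hairpin, gave a detected but weak signal on all 8 arrays. Normalized intensity was 5.03 and 5.47 in the UVD group at 4 d, against 6.29 and 9.38 in the UVD group at 4 h. It was 8.58 and 6.57 in the SO group at 4 d, against 10.64 and 10.98 in the SO group at 4 h. In ascending order the group means were 5.25 ± 0.31 for UVD at 4 d, 7.58 ± 1.42 for SO at 4 d, 7.84 ± 2.18 for UVD at 4 h and 10.8 ± 0.24 for SO at 4 h (SD, n = 2 each), and the middle pair overlapped. The lowest signal called detected on an array ranged from 1.76 to 2.66 before scaling, so this arm lay a few units above the limit.

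The time difference of miR-212-5p, 4 d over 4 h, was -0.55 in the UVD group (SE 0.22, 95% interval -1.12 to 0.02, limma adjusted p = 0.316). It was -0.53 in the SO group (SE 0.22, 95% interval -1.09 to 0.04, limma adjusted p = 0.238). Averaged over both it was -0.54 (SE 0.16, 95% interval -0.94 to -0.14, limma adjusted p = 0.111). Between operations, the log2 fold change, UVD over SO, was -0.52 at 4 d (95% interval -1.08 to 0.05, limma adjusted p = 0.745) and -0.49 at 4 h (95% interval -1.06 to 0.07, limma adjusted p = 0.343). The sizes of these differences depended on the processing, and their signs did not. Without scaling the time difference was -0.04 in the UVD group, -0.55 in the SO group and -0.30 averaged, and UVD over SO was -0.07 at 4 d and -0.57 at 4 h. With normexp the time difference was -0.04 in the UVD group, -0.08 in the SO group and -0.06 averaged, and UVD over SO was -0.04 at 4 d and -0.08 at 4 h. That setting added an offset of 50 to every spot and averaged all spots of the arm, so differences in a weak signal shrink by construction. The authors' values gave -0.05, -0.10 and -0.08 over time in the same order, and -0.04 at 4 d and -0.09 at 4 h. With the percentile over all miRNAs, UVD over SO was -0.25 at 4 d and -0.31 at 4 h, and the averaged time difference was -0.33. Without scaling the signal was 7.11 and 6.75 in the UVD group at 4 d, against 7.51 and 6.78 in the UVD group at 4 h.

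**Figure D3:**
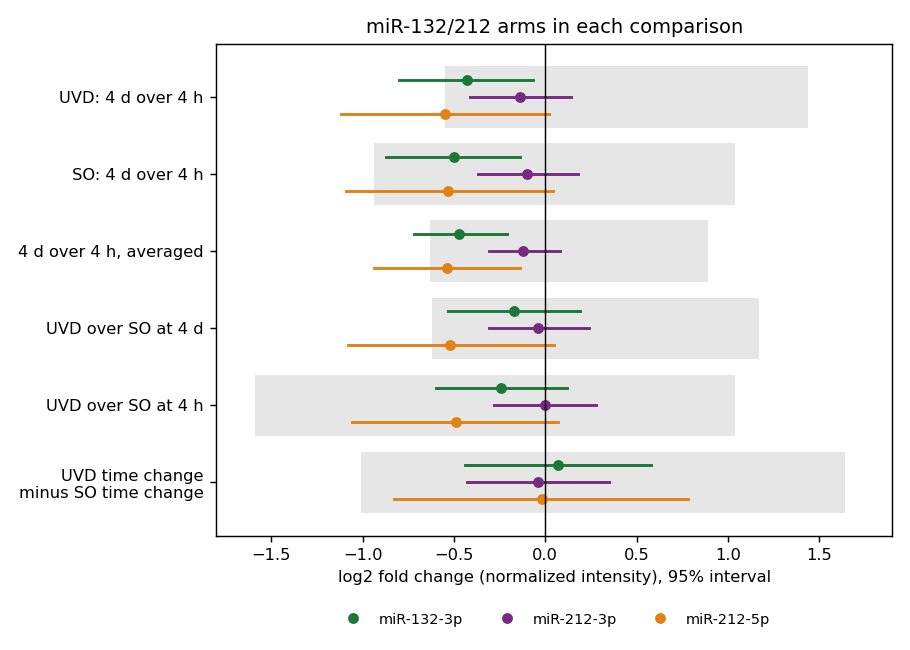
Log2 fold change of normalized intensity (points) with 95% limma interval (lines) for the 3 tested arms in each comparison. Grey boxes span the central 95% of the log2 fold changes of all 422 tested miRNAs. The intervals of miR-132-3p lie below 0 in the time comparisons and include 0 between operations, and no arm passed the adjusted threshold.

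miR-132-5p, which is cut from the other side of the Mir132 hairpin, was listed at the placeholder 0.1 on every array and was not tested. The array had 2 probes for each arm, with 8 spots a probe. For miR-132-5p, probe A_26_P00002902 gave total signals of -1.09 to 0.51, and probe A_26_P00002903 gave 1.10 to 2.80 with 4 to 8 of 8 spots significantly above background, although the scanner software did not call the arm detected. Its lack of a call therefore sets a bound at the detection limit and does not show that the arm was absent.

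The probes behind the other arms differed in how well they supported a level. For miR-132-3p, probe A_26_P00001346 ranged from 675 to 1151 and probe A_26_P00001347 from 415 to 703, and the first over the second was 1.595 to 1.696 on every array. Their unscaled time differences in the SO group were -0.49 and -0.53 on the log2 scale, and in the UVD group -0.07 and -0.11, so both probes gave the same picture. For miR-212-3p, probe A_26_P00001480 ranged from 713 to 821 and probe A_26_P00001479 from 229 to 310, and the second over the first was 0.313 to 0.402. Their unscaled log2 differences at 4 h, UVD over SO, were -0.06 and -0.21. The level of miR-212-5p rested on a single probe, A_26_P00002972 (5.66 to 11.7), because A_26_P00002971 stayed between -0.13 and 0.57. The scanner software's own error on a total gene signal was 7.26% to 7.31% for miR-132-3p, 7.695% to 8.001% for miR-212-3p and 14.5% to 26.3% for miR-212-5p. Hybridisation of one 3p arm to the probes of the other, which differ at few positions, was not tested.

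Over the 8 arrays, the log2 values of miR-132-3p correlated with those of miR-212-3p at r = 0.63 and with those of miR-212-5p at r = 0.841 on the normalized scale. Without scaling these correlations were 0.49 and 0.942. The arms of one hairpin, miR-212-3p and miR-212-5p, correlated at r = 0.246 normalized and 0.408 unscaled. On both scales the highest of the 3 correlations was that of miR-132-3p with the 5p arm of the neighbouring hairpin. The points share arrays and groups, so these values are a description only.

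Outside the cluster, the miRNAs whose normalized log2 pattern over 8 arrays was most like that of miR-132-3p were miR-667-3p (r = 0.982), miR-376a-3p (r = 0.981) and miR-379-5p (r = 0.98). Their averaged time differences were -0.35, -0.28 and -0.29 on the log2 scale. The closest to miR-212-5p were miR-485-5p (r = 0.978), miR-296-5p (r = 0.936) and miR-541-5p (r = 0.936). Of these 6 miRNAs, 5 lie within 35.0 kb on rat chromosome 6 (GRCr8), in the imprinted Mirg cluster of miRNAs, and miR-296-5p lies on chromosome 3. The share of all tested miRNAs that lie in that cluster was not counted, so this count is a description only. The closest to miR-212-3p were miR-129-2-3p (r = 0.946), miR-145-5p (r = 0.913) and miR-324-3p (r = 0.899), which lie on 3 different chromosomes.

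**Figure D4:**
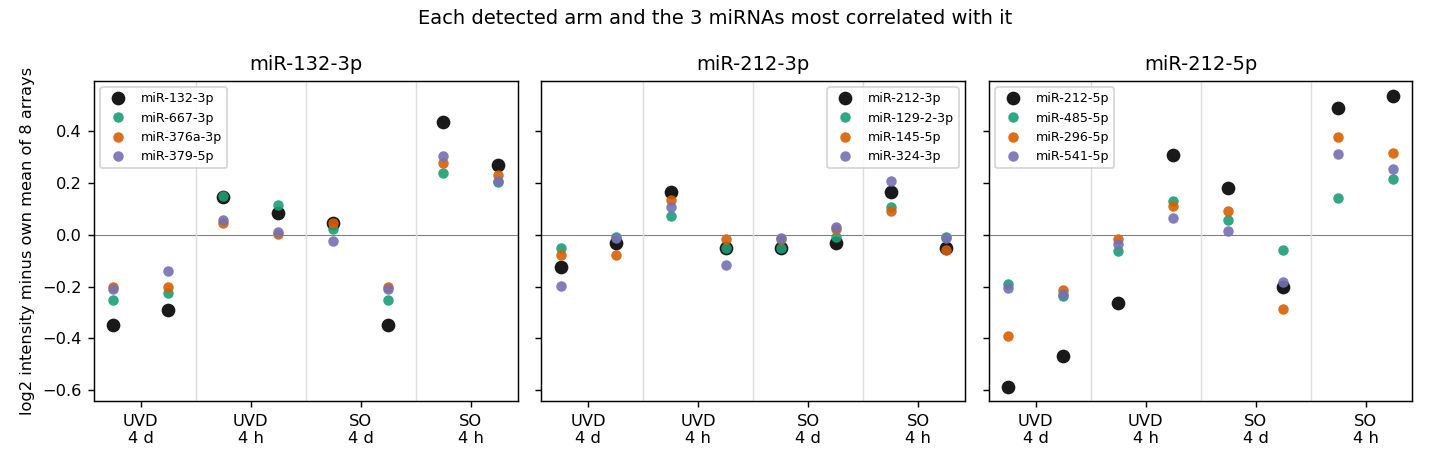
Log2 normalized intensity of each detected arm (black) and of the 3 miRNAs most correlated with it (colours) on each of 8 arrays, each minus its own mean over the arrays, with the groups UVD 4 d, UVD 4 h, SO 4 d and SO 4 h along the horizontal axis. The miRNAs most like miR-132-3p (r = 0.98 to 0.982) were picked for that likeness on these arrays. That they also lie lower at 4 d follows from the choice.

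Other miRNAs known from neurons to respond to activity or to act at synapses were taken as a list of 12, of which 11 were tested and 1, miR-184, was detected on no array. It includes miR-134, a dendritic miRNA that limits spine size, and miR-138-5p, which also acts in dendrites. The 11 are not independent of each other or of the sets used elsewhere here. miR-134-5p and miR-134-3p are arms of the same miRNA. miR-379-5p and miR-485-5p both lie in the Mirg cluster and were among the miRNAs most correlated with the members. Where the other listed miRNAs lie was not looked up, so more of the 11 may come from that cluster. The counts below are therefore not counts of separate loci. miR-138-5p is also among the neuronal markers below. In every comparison 0 of 11 passed the adjusted threshold. In the UVD group the mean at 4 d was below that at 4 h for 10 of 11 and above it for 1, with a median log2 fold change of -0.21 and a range of -0.40 to 0.21. Over all tested miRNAs, 216 had a lower and 197 a higher mean in that comparison, with a median of -0.01. In the UVD group the differences farthest from 0 were those of miR-188-5p at -0.40 (limma adjusted p = 0.552), miR-134-5p at -0.38 (0.316), miR-134-3p at -0.33 (0.376) and miR-485-5p at -0.25 (0.298).

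In the SO group the mean at 4 d was below that at 4 h for 7 of these 11 and above it for 3, with a median of -0.18 and a range of -0.38 to 0.35, beside a median of 0.00 over all tested miRNAs. Here miR-379-5p (-0.38, limma adjusted p = 0.13), miR-381-3p (-0.35, adjusted p = 0.164) and miR-335 (-0.26, adjusted p = 0.282) had lower means at 4 d. miR-146a-5p, which is induced by inflammatory signals, had a higher mean (0.35, adjusted p = 0.171). Averaged over both operations, the mean was lower at 4 d for 10 of 11, and the median was -0.20, beside 208 lower and 214 higher means and a median of 0.00 over all tested miRNAs. Between operations, UVD over SO, 8 had a lower and 3 a higher mean at 4 d (median -0.07), beside 238 lower and 177 higher over all tested miRNAs (median -0.02). At 4 h 5 had a lower and 5 a higher mean (median 0.00), beside 215 lower and 195 higher over all tested miRNAs (median -0.01). The value of miR-132-3p lay below the listed range of 11 in the UVD group (-0.43), in the SO group (-0.50) and at the average (-0.47). The weakly detected miR-212-5p also lay below it in each (-0.55, -0.53 and -0.54), and the value of miR-212-3p lay inside it in each.

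Markers of the cells a dissected MVN could hold were summed on each array. Neuronal miRNAs (9 of 9 tested) summed to 55412 to 58394 in UVD at 4 d, 51661 to 53878 in UVD at 4 h, 51465 to 54920 in SO at 4 d and 52178 to 55416 in SO at 4 h. The neuronal sums at 4 d were above those at 4 h in the UVD group and overlapped them in the SO group. Of the 9 neuronal miRNAs, 5 had a lower mean at 4 d in each operation, and the number called lower was 0 in the UVD group (0.0% of all tested miRNAs called), 2 in the SO group (1.66%) and 1 in the average (1.66%). Microglial and leukocyte miRNAs (5 of 5 tested) summed to 3574 to 3800 in UVD at 4 d, 3167 to 3238 in UVD at 4 h, 3346 to 3490 in SO at 4 d and 2908 to 2910 in SO at 4 h. Choroid plexus and ependymal miRNAs (6 of 6 tested) summed to 7373 to 9156, 5907 to 6039, 6106 to 6420 and 5195 to 5379 in the same order of groups. These last 2 sums were higher at 4 d in both operations, opposite to miR-132-3p, with 1 miRNA of each list called higher in the averaged comparison (1.66% of all tested miRNAs called). In the UVD group every miRNA of both lists had a higher mean at 4 d. In the SO group the mean was lower at 4 d for 1 of 5 microglial and leukocyte miRNAs. It was also lower for 2 of 6 choroid plexus and ependymal miRNAs, down to -0.77 on the log2 scale. Erythroid miRNAs (4 tested) summed to 874 to 1288, 739 to 944, 1018 to 1061 and 934 to 955 in that order, and muscle miRNAs (4 tested) to 1771 to 2356, 2127 to 2145, 2022 to 2379.6 and 1599 to 2001. In the SO group both sums were higher at 4 d without overlap, and in the UVD group both overlapped between timepoints. Oligodendrocyte miRNAs (3 tested) summed to 45282 to 53601, 53601 to 54284, 55182 to 59613 and 54661 to 56808, and vessel miRNAs (4 tested) to 7566 to 7614, 7586 to 7890, 8208 to 8420 and 7919 to 8064. In the SO group the vessel sum was also higher at 4 d without overlap, and in the UVD group it overlapped between timepoints. Of the erythroid, muscle, oligodendrocyte and vessel lists, 0 miRNAs were called in the averaged comparison. How often such sums separate between timepoints was not counted. For single miRNAs, separation with lower values at 4 d was found for 25.4% (UVD) and 28.7% (SO) of all tested. No listed marker was at 0 on all arrays, and the part of any of these cells in the miR-132-3p values was not tested.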

How the data were processed

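Total RNA from rat MVN was labelled with Cy3 and hybridised to 1-colour Agilent miRNA arrays, 2 per group. The authors deposited Agilent Feature Extraction 10.7.3.1 scanner output per array, holding total gene signal as background-subtracted intensity with detection flags, and a table of linear quantile-normalized intensity made in GeneSpring. Which scanner signal that table was made from is not given in the sources used here.

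Each miRNA had 1 total gene signal per array. These signals were quantile-normalized, floored at 1 and converted to log2. The 422 miRNAs that passed the detection flag on each array of 1 or more groups were fitted with limma 3.58.1 (R 4.3.3) over all 4 groups, without a block, and Benjamini-Hochberg adjusted. The fit was tested on simulated data. There were 2 arrays per group on which to estimate the error.

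Named miRNAs were the 4 members, up to 4 of the activity list per comparison (those called, otherwise those with the largest absolute log2 fold change), all miRNAs sharing a seed, and the 3 most correlated with each tested member. The members, the activity list and the marker lists (neuron, oligodendrocyte, microglia and leukocyte, erythroid, vessel, choroid plexus and ependyma, muscle) were chosen with earlier results of these data known. Alternatives were 75th percentile scaling, no scaling, normexp (offset 50), the authors' values, a floor of 4, no detection filter, a trended robust variance, only the groups compared, the methods' t-test (undefined where neither group varied), a replicate block and leaving out each array. The unscaled signals per array and the ratio of 3p arms were added after seeing the data. Sequences, positions and names came from RefSeq tables (GRCr8).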

Additional observations from a re-analysis of the deposited data

How the results depend on the processing

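Each group had 2 arrays, and miR-212-5p lay a few units above the detection limit. How far either limited the calls was not tested. miR-132-3p kept a lower mean at 4 d under every alternative run, with log2 differences of -0.47 to -0.08 in the UVD group (adjusted p 0.136 to 0.716), -0.71 to -0.31 in the SO group (0.043 to 0.415) and -0.57 to -0.29 averaged (limma adjusted p 0.0189 to 0.238). It passed the threshold in the SO group with normexp (-0.50, adjusted p = 0.043), and averaged with normexp (-0.43), the authors' values (-0.47), a trended robust variance (-0.47) and without SO 4 d replicate 1 (-0.57).

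The direction turned in these cases. Without scaling, miR-212-3p was at 0.10 over time in the UVD group, miR-132-3p at 0.04 and miR-212-3p at 0.10 between operations at 4 d, and the difference of time differences was 0.20 for miR-212-3p and 0.51 for miR-212-5p. With 75th percentile scaling over all miRNAs, miR-212-3p was at 0.09 over time in the SO group, and the difference of time differences was -0.02 for miR-132-3p and 0.06 for miR-212-5p. With the percentile taken over detected miRNAs it was -0.01 for miR-132-3p and 0.08 for miR-212-5p, and for miR-212-5p it was 0.04 with normexp and 0.05 with the authors' values. The medians of all tested miRNAs then stood at 0.26 (UVD time), 0.16 (UVD over SO at 4 d) and 0.31 (difference) without scaling, and at 0.20 (SO time) with the percentile over all miRNAs. The causes were not tested.

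Leaving out 1 array at a time gave, for miR-132-3p, -0.47 to -0.40 in the UVD group, -0.71 to -0.31 in the SO group, -0.57 to -0.37 averaged, -0.34 to -0.16 at 4 h, -0.36 to 0.03 at 4 d and -0.12 to 0.27 for the difference. For miR-212-3p the ranges were -0.25 to -0.02, -0.21 to 0.01, -0.17 to -0.06, -0.11 to 0.11, -0.08 to 0.01 and -0.15 to 0.08, in the same order. For miR-212-5p they were -0.87 to -0.18, -0.73 to -0.32, -0.70 to -0.34, -0.72 to -0.21, -0.73 to -0.33 and -0.33 to 0.31.

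Counts of called miRNAs moved by more than 1.5 times as follows. The UVD time count, 0, became 1 with either percentile scaling, no scaling or the floor of 4, and 2 with no filter. The SO time count, 7, became 1 with either percentile scaling or no scaling, 21 with normexp, 19 with the authors' values, 2 with no filter, with only the groups compared or with the replicate block, and 0 with the methods' t-test. The averaged count, 7, became 2 and 18 with the percentile over detected and over all miRNAs, 67 with normexp, 41 with the authors' values or a trended robust variance, and 0 with the replicate block. The 4 h count, 2, became 1 with either percentile scaling or no scaling, 7 with normexp, 6 with a trended robust variance, 9 with only the groups compared, and 0 with the t-test. The 4 d count, 0, became 1 with either percentile scaling or no scaling, and 2 with no filter or the floor of 4. The count for the difference, 1, became 2 with either percentile scaling, no scaling or the floor of 4, 3 with no filter, and 0 with normexp, the authors' values or a trended robust variance. Leaving out 1 array gave 0 to 11 (UVD time), 1 to 12 (SO time), 0 to 32 (averaged), 1 to 10 (4 h), 0 to 1 (4 d) and 0 to 7 (difference).

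The replicate numbers were those of the sample titles. The source names number the arrays otherwise, giving both arrays of a group the same number, and pair no arrays. Whether the titles' numbers pair the arrays is not known. Correlations of replicate differences between groups were -0.255 to 0.193, which cannot exclude a pairing, since each group gives a single difference. With the replicate block, the adjusted p of miR-132-3p was 0.341 in the UVD group, 0.184 in the SO group and 0.109 averaged, and no member's call changed.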
